A study of Rattus norvegicus with 5 samples.

Results

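In the striatum, spiny projection neurons of the indirect pathway send their axons to the pallidum, and those of the direct pathway send theirs to the midbrain. Indirect pathway neurons are known for the dopamine receptor Drd2, the adenosine receptor Adora2a and the enkephalin precursor Penk. The genes described here are the less familiar ones that stood apart in the same direction. Their products include a glutamate receptor, a phospholipase, a pair of kinases, a synaptic vesicle protein, mitochondrial proteins and proteins that serve RNA modification or splicing.

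The 28 genes were chosen by their measured levels in all 5 libraries of the study. A gene was taken where its lowest striatopallidal level was at least 10 CPM (the count over the library's total, times 1000000) and at least 3 times the higher of its striatomesencephalic levels. Among 32285 genes in the count files, 12039 had a symbol in the authors' deposited comparison, and 6188 of these reached 10 CPM in every striatopallidal library. Of these 6188, 33 met both criteria, or 0.533%. Among 8 well known genes set aside by name, Penk, Entpd1, Chrm3, Htr4 and Gfap were among the 33. Drd2 (ratio of lowest striatopallidal to higher striatomesencephalic level 2.71), Rgs4 (2.84) and Adora2a (2.22) missed the 3-fold ratio in any case. That left 28 genes. Since the choice used every library, the levels and fold changes of these genes are a description, and no test of them is given.

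RNA came from rat striatal neurons that had been labelled by a fluorescent tracer infused where their axons end and then cut out by laser. Striatomesencephalic neurons, of the direct pathway, gave 2 libraries, and striatopallidal neurons, of the indirect pathway, gave 3. The labels give no strain, age, sex or treatment, and no number of cells or animals behind a library. Library totals ran from 20845178 to 24805062 counts, so that 10 CPM stood for 208 to 248 counts. Levels of indirect pathway markers summed to 1890 and 2030 CPM in the striatomesencephalic and 6290 to 6950 CPM in the striatopallidal libraries. Direct pathway markers summed to 5210 and 5700 CPM against 1880 to 2860 CPM. Striatopallidal replicate 2 stood apart from the other libraries, with Spearman correlations across genes of at most 0.82 with any of them, against 0.907 between striatopallidal replicates 1 and 3.

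Summed over the 28 genes, the level was 201 and 220 CPM in striatomesencephalic replicates 1 and 2. It was 1490, 2500 and 1960 CPM in striatopallidal replicates 1, 2 and 3. The log2 fold change, striatopallidal minus striatomesencephalic, ran from 2.0 for Extl2 to 5.90 for Tll1 with a median of 3.39, beside a median of 0.06 over all 13811 genes fitted. No gene had 0 counts in any library. The smallest count was 8, for Mpzl3 in striatomesencephalic replicate 1, and 16 of the 28 genes were below 5 CPM in both striatomesencephalic libraries. Levels are shares of counts and were not divided by transcript length, so they are compared between libraries and not between genes.

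**Figure D1:**
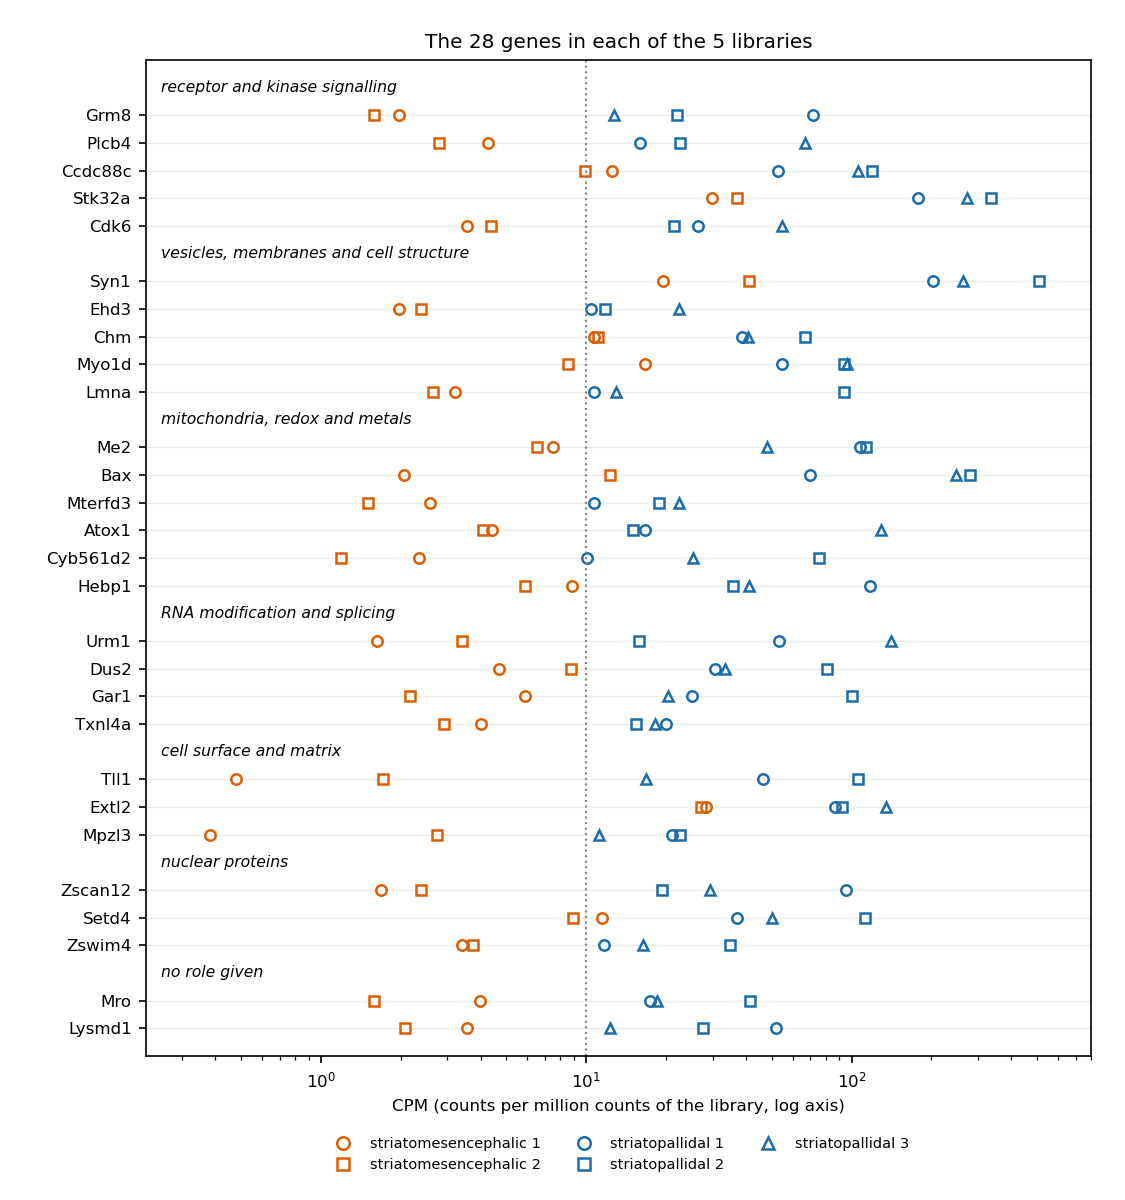
Level of each of the 28 genes in CPM (log axis) in the 2 striatomesencephalic (orange) and 3 striatopallidal (blue) libraries, 1 point per library, grouped by the role of the gene product; the dotted line marks 10 CPM. The blue points of each gene lie at or beyond 3 times the higher orange point, which is how the genes were chosen, while their spread differs, from 1.3-fold for Txnl4a to 8.91-fold for Urm1.

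A first group of 5 genes encodes parts of signalling cascades. Grm8 encodes a metabotropic glutamate receptor of group III, which couples to inhibitory G proteins and is mostly found on axon terminals. Its level was 1.97 and 1.59 CPM in the striatomesencephalic libraries and 71.8, 21.9 and 12.7 CPM in striatopallidal replicates 1, 2 and 3. The log2 fold change was 4.32 ± 1.05 (SE), and striatopallidal replicate 1 was 5.64 times replicate 3. Grm8 was the only one of the 28 genes in any of the 20 gene lists used for pathways and cell types. Penk, Entpd1, Chrm3, Htr4 and Gfap, which met the criteria but were set aside by name, are also in these lists. In the list of 22 glutamate receptor genes fitted, 0 passed an adjusted p of 0.05 in edgeR's quasi-likelihood test, as did 0 of all 13811 genes.

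Plcb4 encodes a phospholipase C that is activated by receptors coupled to Gq and releases the second messengers that mobilise calcium. It stood at 4.27 and 2.79 CPM in the striatomesencephalic libraries and at 15.9, 22.6 and 66.7 CPM in striatopallidal replicates 1, 2 and 3. Striatopallidal replicate 3 was thus the high library for Plcb4, unlike for Grm8, where it was the lowest. Ccdc88c encodes DAPLE, a scaffold that binds Dishevelled and modulates Wnt and G protein signalling. Its levels were 12.5 and 9.86 CPM against 53.0, 119 and 106 CPM, and its log2 fold change was 3.21 ± 0.72 (SE).

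The group holds a pair of kinase genes. Stk32a encodes a serine/threonine kinase of which little is known. It was at 29.8 and 37.0 CPM in the striatomesencephalic libraries and at 178, 335 and 273 CPM in the striatopallidal ones. The log2 fold change of Stk32a was 3.12 ± 0.58 (SE), and its striatopallidal libraries differed by 1.88-fold. Cdk6 encodes a cyclin-dependent kinase that pairs with D-type cyclins at the start of the cell cycle. Levels of Cdk6 were 3.55 and 4.38 CPM against 26.3, 21.4 and 54.7 CPM, with a log2 fold change of 3.15 ± 0.81 (SE). All 3 cyclin D genes overlapped between the neuron types, with log2 fold changes of 1.04 ± 1.38 (SE) for Ccnd1, -0.86 ± 0.72 for Ccnd2 and -0.52 ± 0.91 for Ccnd3.

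Another 5 genes act on vesicles, membranes or the cell's framework. Syn1 encodes synapsin I, which tethers synaptic vesicles to the cytoskeleton of the terminal and is found in nearly all neurons. It was at 19.5 and 40.9 CPM in the striatomesencephalic libraries and at 202, 510 and 264 CPM in striatopallidal replicates 1, 2 and 3. The log2 fold change was 3.62 ± 0.77 (SE). The other synapsin genes did not share this order of the libraries. Syn2 stood at 729 and 469 CPM against 7560, 266 and 479 CPM, with a fitted log2 change of 2.10 ± 1.29 (SE), with striatopallidal replicate 1 alone above the striatomesencephalic libraries. Syn3 stood at 52.1 and 48.5 CPM against 36.5, 332 and 58.0 CPM and was high in striatopallidal replicate 2 alone. Neither passed the fit over all genes (adjusted p = 0.799 for both in edgeR's quasi-likelihood test).

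Ehd3 encodes an ATPase that shapes endocytic recycling membranes. It was at 1.97 and 2.39 CPM against 10.4, 11.8 and 22.3 CPM, with a fitted log2 change of 2.84 ± 0.93 (SE), and lay just over the floor of 10 CPM. Chm encodes Rab escort protein 1, which presents new Rab proteins for prenylation. Its striatomesencephalic levels of 10.7 and 11.1 CPM nearly coincided, and its striatopallidal levels ran from 38.6 to 66.6 CPM. Both subunits of the enzyme that Chm serves, Rabggta (0.30 ± 0.74 (SE) on the log2 scale) and Rabggtb (-0.48 ± 0.67), overlapped between the neuron types.

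Myo1d encodes a single-headed myosin that links membranes to actin, and it ran from 8.53 to 16.7 CPM in the striatomesencephalic and from 54.6 to 96.2 CPM in the striatopallidal libraries. Its relative Myo1c lay just under the floor, with 1.2 and 1.55 CPM against 9.60, 39.1 and 9.86 CPM. Myo1e (0.18 ± 1.27 (SE)) overlapped between the neuron types. Lmna encodes lamins A and C of the nuclear envelope. Striatopallidal replicate 2 held 93.7 CPM of Lmna, where replicates 1 and 3 held 10.7 and 13 CPM and the striatomesencephalic libraries 3.21 and 2.65 CPM. Without striatopallidal replicate 2 the log2 fold change of Lmna was 1.93 in place of 4.06.

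Promoter sequences from RefSeq (assembly GRCr8, from 250 bases before to 50 after the start) were at hand for 22 of the 28 genes. They were searched for 10 motifs on both strands. The genes shown were picked after the matches were seen: Syn1 and Dus2 for the cyclic AMP response element (CRE), to which CREB binds, and Plcb4 for its run of GC boxes. Capitals mark the CRE (TGACGTCA) and the GC box (GGGCGG). For Syn1 and Plcb4 the 250 bases before the start are given, and for Dus2 30 bases around the CRE, all 5′ to 3′ on the plus strand.
Syn1, chrX:3725495-3725744: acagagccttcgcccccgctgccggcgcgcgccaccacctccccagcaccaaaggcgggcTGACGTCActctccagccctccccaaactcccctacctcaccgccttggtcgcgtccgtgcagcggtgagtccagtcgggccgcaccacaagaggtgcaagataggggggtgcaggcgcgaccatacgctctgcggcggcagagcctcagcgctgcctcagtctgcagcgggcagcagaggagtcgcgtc
Plcb4, chr3:143405723-143405972: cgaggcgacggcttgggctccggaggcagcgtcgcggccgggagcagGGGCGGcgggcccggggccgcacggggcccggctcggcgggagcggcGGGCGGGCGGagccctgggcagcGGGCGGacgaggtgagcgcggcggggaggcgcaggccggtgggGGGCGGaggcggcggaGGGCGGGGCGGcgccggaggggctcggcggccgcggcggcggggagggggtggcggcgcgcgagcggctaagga
Dus2, chr19:50821585-50821614: gcgcatggtagTGACGTCAcgtacgcgact

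Syn1 and Dus2 were the only 2 of the 22 promoters with a CRE (9.09%), where 1.83% of all 33469 promoters in the table hold one. The shorter core TGACG, which every CRE contains, was in 5 of the 22 (22.7%) and in 21.2% of all. GC boxes occurred in 10 of the 22 (45.5%) and in 33.1% of all promoters, and the stretch before Plcb4 holds 7 of them, some overlapping. EGR sites (GCGGGGGCG or GCGTGGGCG) were in 2, Zswim4 and Syn1 (9.09%), against 3.20%. The CCAAT box (CCAAT) occurred in 8 (36.4%) against 37.5%, and the AP-1 site (TGACTCA) in 1 (4.55%) against 4.63%. The other motifs were in 0 of the 22. Their shares of all promoters were 6.42% for the E-box (CACGTG), 14.2% for the TATA box (TATAAA), 0.852% for the NRF1 site and 0.128% for the MEF2 site. Median GC content was 60.7% in these promoters and 51.7% over all in the table. The GC box and EGR site consist of G and C alone or nearly so. For every motif the comparison was with all promoters, neither limited to genes at the floor nor matched for GC content. With 10 motifs searched on 22 sequences, these matches of letters are a description, and no motif was in more than 10 of the 22.

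A group of 6 genes belongs to mitochondria, redox balance or the handling of metals and heme. Me2, the NAD-dependent malic enzyme of mitochondria, was at 7.53 and 6.50 CPM in the striatomesencephalic libraries and at 108, 113 and 47.9 CPM in the striatopallidal ones. Its log2 fold change was 3.81 ± 0.75 (SE). The other malic enzymes, Me1 at -1.80 ± 1.12 (SE) and Me3 at -0.03 ± 0.56, overlapped between the neuron types. Bax, the pore-forming protein of mitochondrial apoptosis, was at 2.06 and 12.3 CPM against 69.9, 280 and 248 CPM. The striatomesencephalic libraries differed by 5.96-fold for Bax, and its log2 fold change of 4.96 ± 1.16 (SE) was 6.79 without striatomesencephalic replicate 2. Of its family, Bcl2 (0.30 ± 1.1 (SE)), Bcl2l1 (1.29 ± 1.06), Bcl2l2 (1.44 ± 0.78) and Bok (0.08 ± 0.88) all overlapped between the neuron types.

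Cyb561d2 encodes a transmembrane cytochrome b561 that passes electrons across membranes. It was at 2.35 and 1.19 CPM against 10.1, 75.6 and 25.3 CPM, with a fitted log2 change of 4.66 ± 1.31 (SE), and had the lowest striatopallidal value of the 28 genes. Without striatopallidal replicate 2 that change was 3.25. Its relative Cyb561 was at 83.9 and 86.6 CPM against 186, 247 and 154 CPM, without overlap, at 1.34 ± 0.50 (SE). The other relatives, Cyb561a3 (-1.0 ± 1.79 (SE)) and Cybrd1 (-0.20 ± 0.85), overlapped between the neuron types. Atox1, the chaperone that hands copper to the pumps Atp7a and Atp7b, had 4.41 and 4.07 CPM in the striatomesencephalic libraries. It had 16.7 and 15.0 CPM in striatopallidal replicates 1 and 2 and 129 CPM in replicate 3. Without that last library its log2 fold change was 2.05 in place of 3.65.

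Mterfd3, named Mterf2 in RefSeq, encodes a factor of the mitochondrial transcription termination family. It ranged from 1.5 to 2.59 CPM in the striatomesencephalic and from 10.7 to 22.4 CPM in the striatopallidal libraries. Hebp1, a heme-binding protein, ranged from 5.88 to 8.87 CPM and from 35.8 to 117 CPM, with striatopallidal replicate 1 the high one.

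A group of 4 genes serves the modification or splicing of RNA. Urm1 encodes a ubiquitin-like protein that delivers sulfur for the thiolation of tRNA. It was at 1.63 and 3.40 CPM in the striatomesencephalic libraries and at 53.2, 15.8 and 141 CPM in the striatopallidal ones, a log2 fold change of 4.76 ± 1.11 (SE). The change of Urm1 was 3.78 without striatopallidal replicate 3 and 5.41 without striatomesencephalic replicate 2. Its 8.91-fold range among striatopallidal libraries was the widest of the 28 genes. Genes that act with it in tRNA thiolation, Ctu1 at -0.21 ± 0.71 (SE), Ctu2 at 0.91 ± 1.64 and Mocs3 at -1.97 ± 1.97, overlapped between the neuron types.

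Dus2 encodes an enzyme that makes dihydrouridine in tRNA, and it ranged from 4.70 to 8.76 CPM in the striatomesencephalic and from 30.5 to 80.7 CPM in the striatopallidal libraries. Gar1 encodes a core protein of the H/ACA particles that guide pseudouridine formation. It ranged from 2.17 to 5.90 CPM and from 20.4 to 100 CPM, and its log2 fold change of 3.87 was 2.41 without striatopallidal replicate 2. Its particle partners Dkc1 (0.34 ± 0.78 (SE)) and Nop10 (-0.62 ± 0.83) overlapped between the neuron types. Txnl4a encodes a small protein of the U5 splicing particle. It was the steadiest of the 28 genes, from 15.4 to 20 CPM in the striatopallidal libraries against 2.92 and 4.03 CPM in the striatomesencephalic ones.

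A group of 3 genes acts at the cell surface or in the matrix. Tll1 encodes a tolloid-like metalloprotease that processes procollagens and the antagonists of bone morphogenetic proteins. It was at 0.480 and 1.72 CPM in the striatomesencephalic libraries, or 10 and 39 counts, and at 46.3, 106 and 16.8 CPM in the striatopallidal ones. Its ratio of lowest striatopallidal to higher striatomesencephalic level, 9.73, was the largest of the 28 genes, and its log2 fold change was 5.90 ± 1.36 (SE). That value was 4.72 without striatopallidal replicate 2 and 7.11 without striatomesencephalic replicate 2. Bmp1, which encodes a related protease, lay the other way without overlap, at 4.94 and 6.32 CPM against 3.48, 0.847 and 1.16 CPM (-1.64 ± 1.06 (SE)).

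Extl2 encodes a glycosyltransferase of the exostosin family, which builds heparan sulfate. It stood at 28.2 and 27.0 CPM against 86.6, 91.8 and 135 CPM, with a fitted log2 change of 2.0 ± 0.52 (SE), and was the gene closest to the 3-fold line from within. The chain-building enzymes Ext1 (0.67 ± 0.46 (SE)) and Ext2 (0.72 ± 0.54) were also higher in every striatopallidal library, by less. The related Extl1 (-0.98 ± 0.52 (SE)) and Extl3 (-1.23 ± 1.37) had values below 0 but overlapped between the neuron types. Mpzl3, a membrane protein with an immunoglobulin domain, ranged from 0.384 to 2.74 CPM and from 11.2 to 22.5 CPM. Its log2 fold change of 3.66 was 5.70 without striatomesencephalic replicate 2.

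Nuclear proteins are encoded by Zscan12, Setd4 and Zswim4. Zscan12, a zinc finger protein, was at 1.68 and 2.39 CPM in the striatomesencephalic libraries and at 95, 19.3 and 29.4 CPM in the striatopallidal ones, a log2 fold change of 4.52 ± 0.97 (SE). Setd4, a SET domain methyltransferase, was at 11.5 and 8.93 CPM against 37.1, 112 and 50.1 CPM. Zswim4, which carries a SWIM zinc finger, was at 3.41 and 3.76 CPM against 11.7, 34.8 and 16.4 CPM. The remaining genes, whose roles are not stated here, were Mro and Lysmd1. Mro was at 3.98 and 1.59 CPM against 17.4, 41.6 and 18.5 CPM. Lysmd1 ranged from 2.08 to 3.55 CPM and from 12.3 to 51.9 CPM.

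**Figure D2:**
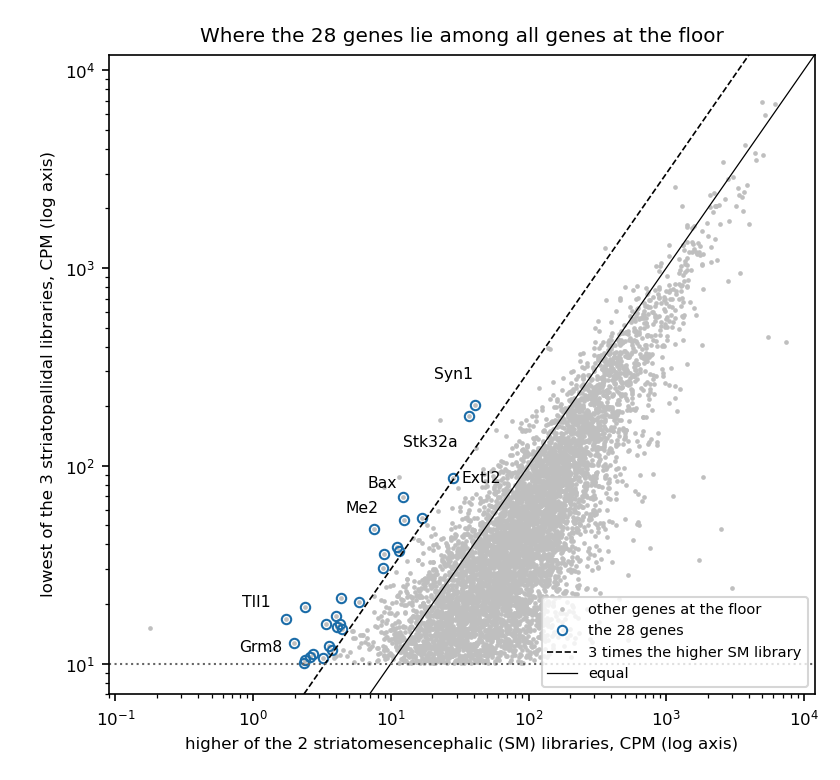
Each point is 1 of the 6188 genes with a symbol and at least 10 CPM in every striatopallidal library, placed by its higher striatomesencephalic (x) and lowest striatopallidal (y) level in CPM, both on log axes. The 28 genes (circles) lie above the dashed 3-fold line, from Extl2 at a ratio of 3.07 to Tll1 at 9.73; grey points above that line are the 5 well known genes set aside.

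Just inside the 3-fold line lay Extl2 (ratio 3.07), Zswim4 (3.10) and Setd4 (3.22). Just outside lay Ttc37 (2.99, at 11.2 and 14.4 CPM against 43.3, 55.2 and 43.0 CPM) and Synpo2 (2.99, at 41.3 and 30.2 CPM against 185, 199 and 123 CPM). The third was Plag1 (2.92, at 7.53 and 6.85 CPM against 38.2, 22.0 and 35.6 CPM). No gap in the ratio separated the 2 sides. On the floor, Cyb561d2 at 10.1 CPM was the lowest gene kept, and Myo1c at 9.60 CPM the highest left out with a sufficient ratio.

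The 28 genes varied more among the striatopallidal libraries than most genes did. Their highest striatopallidal level was a median of 2.81 times the lowest, beside 2.04 over the 6188 genes at the floor. Stk32a, Txnl4a, Chm, Myo1d and Extl2 stayed within 2-fold, and Tll1, Grm8, Urm1, Cyb561d2, Atox1 and Lmna ranged over more than 5-fold. Striatopallidal replicate 2 was the highest for 15 of the 28 (53.6%, against 33.8% of the 6188 genes), and replicate 1 the lowest for 16 (57.1%, against 24.6%). Over the 6188 genes replicate 2 was the lowest most often (48%). Leaving out 1 library moved the fitted fold by over 1.5 times on the linear scale for 16 of the 28 genes. Striatopallidal replicate 2 did so for 9 of them, replicate 3 for 3, replicate 1 for 2, and each striatomesencephalic library for 5. Besides the values given with the genes, the log2 fold change without striatopallidal replicate 2 was 2.87 for Syn1, 2.61 for Mro, 2.16 for Dus2, 2.02 for Setd4 and 1.89 for Zswim4. Without striatopallidal replicate 1 it was 3.54 for Grm8 and 3.74 for Zscan12, and without replicate 3 it was 2.66 for Plcb4. Without striatomesencephalic replicate 1 it was 5.25 for Tll1, 4.73 for Gar1, 4.20 for Mro, 4.18 for Bax and 2.84 for Mpzl3, and without replicate 2 it was 4.27 for Syn1. TMM factors, which correct for composition, were 0.774 for striatopallidal replicate 2 and 1.14 for replicate 1, and plain CPM does not use them. Scaling with them raises the levels of replicate 2 and lowers those of replicate 1. For genes highest in replicate 2 and lowest in replicate 1 it widens the spread. With TMM-scaled CPM 33 genes again met the criteria, but only 20 of the 28 were among them. Ehd3, Cyb561d2, Mterfd3 and Lmna then fell under the floor, and Myo1d, Setd4, Zswim4 and Extl2 under the 3-fold ratio. Drd2, Rgs4, Plag1 and 5 others came in.

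The number of such genes was set beside that of the other ways to divide the 5 libraries into 3 and 2. The same criteria, applied to the 9 other groupings, gave 2 to 73 genes with a median of 13. The labelled grouping gave 33, which 3 of the 9 exceeded and 6 did not reach. The largest numbers, 73 and 60, came from groupings that set striatopallidal replicate 2 and 1 striatomesencephalic library against the other 3 libraries. All groupings were counted in plain CPM and not with TMM scaling. In plain CPM replicate 2 was the lowest striatopallidal library for 48% of the 6188 genes at the floor. In the reverse direction of the labelled grouping, with both striatomesencephalic libraries at least 3 times the highest striatopallidal one, 44 genes met the criteria. In the same direction, higher in the 2 libraries than in the 3, the 9 other groupings gave 17 to 50 genes. These counts say nothing of any single gene among the 28.

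**Figure D3:**
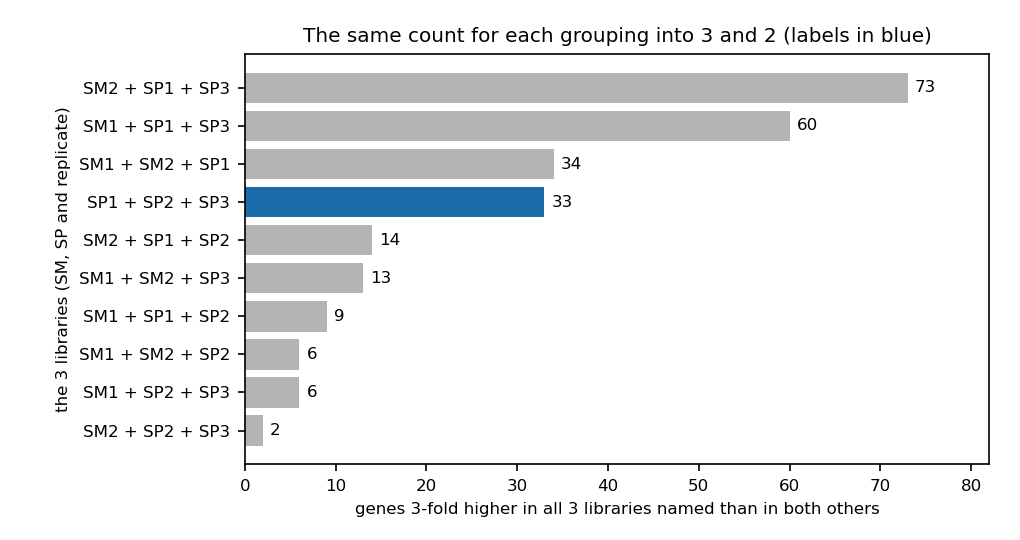
Bars give the number of genes with at least 10 CPM in all 3 named libraries and 3 times the higher of the other 2, for each of the 10 groupings of the 5 libraries (SM, striatomesencephalic; SP, striatopallidal; the digit is the replicate). The labelled grouping (blue) gives 33 genes, the others 2 to 73.

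Over all 13811 genes fitted, the quasi-likelihood test of edgeR called 0 at an adjusted p of 0.05 (0%), and the smallest adjusted p was 0.779. At an unadjusted p under 0.05 it had 839 genes, and 434 of them were higher in striatopallidal libraries (3.14% of all genes fitted). DESeq2 called 139 genes higher in striatopallidal libraries (1.01%), the exact test of edgeR called 14 (0.101%) and limma voom 0. Which of the 28 genes a test calls is not given, because they were chosen by the same contrast in the same libraries. In the authors' deposited table the 28 genes had log2 fold changes from 1.88 to 5.62, and the smallest adjusted p over all genes there was 0.927.

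Relatives and partners of the 28 genes give a view the choice did not fix, though the list was drawn up after the genes were known. It held 58 fitted genes for 24 of the 28, namely 42 paralogs and 16 partners in the same complex or step. None passed the adjusted threshold in edgeR's quasi-likelihood test, and Myo1c and Cyb561 had an unadjusted p under 0.05. In 7 of the 58 (12.1%) every striatopallidal library lay above both striatomesencephalic ones, near the 9.91% of all genes fitted. These were Ccdc88a, Cdk4, Myo1c, Cyb561, Dus4l, Ext1 and Ext2. The median log2 fold change was 0.38 for paralogs and -0.18 for partners, beside 0.06 over all genes. The largest value among them, 5.11 ± 2.45 (SE) for Ehd2, came with 20 and 1 counts against 22, 933 and 22 counts, so that striatopallidal replicate 2 alone stood out. Differences between a gene and its relatives were not tested.

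**Figure D4:**
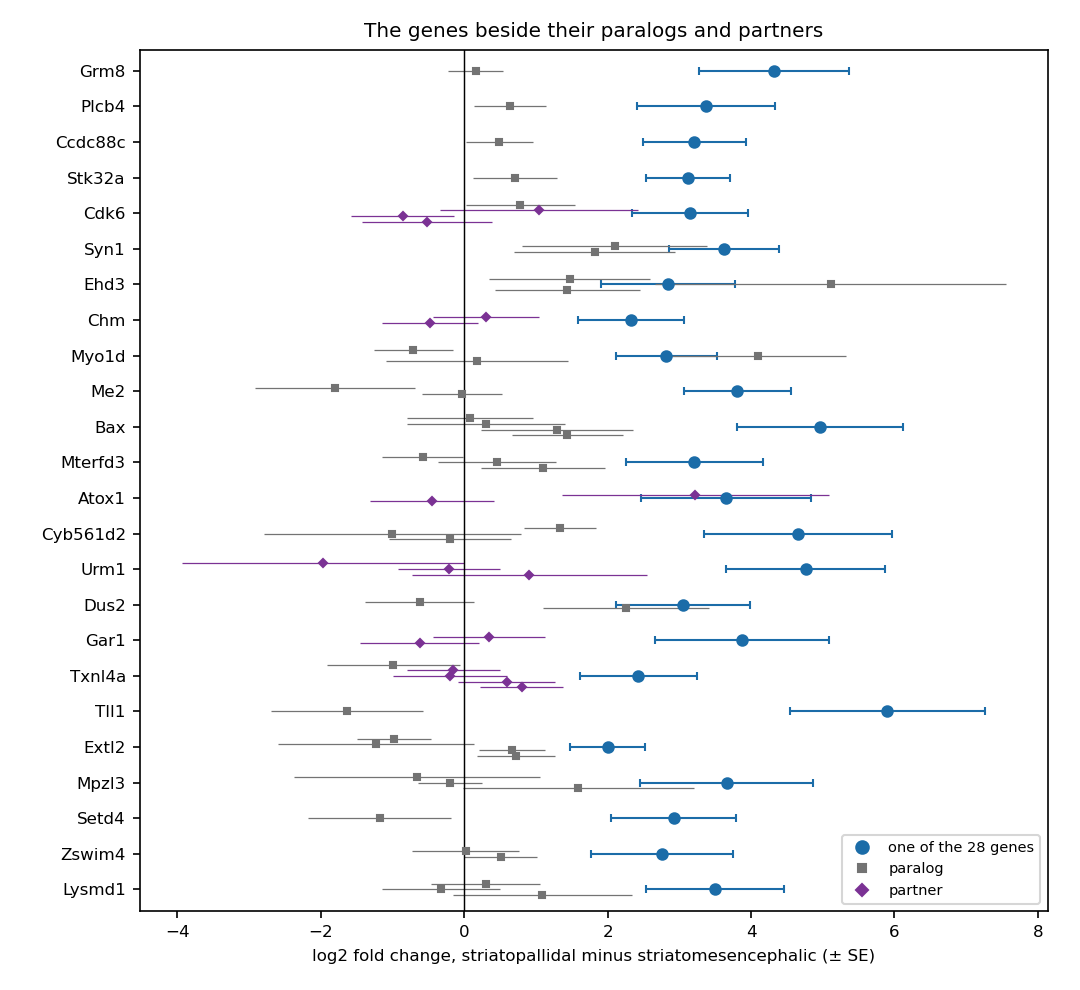
Log2 fold change (striatopallidal minus striatomesencephalic, ± SE) of 24 of the 28 genes (blue circles) beside their fitted paralogs (grey squares) and partners (purple diamonds). The blue circles lie between 2.0 and 5.90 by choice of the genes, while the 58 relatives run from -1.97 to 5.11 on both sides of 0.

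RNA of other cells was followed through marker lists, because laser-cut cells can carry RNA of their neighbours, and fewer cells of a type and less RNA per cell cannot be told apart. None of the 28 genes was in the lists for astrocytes, oligodendrocytes and their precursors, microglia, vessels, ependyma, interneurons, cortical neurons or blood. The astrocyte gene Gfap met the criteria but had been set aside by name. Summed levels overlapped between the neuron types for each of these 9 lists. Astrocyte markers summed to 2690 and 3320 CPM in the striatomesencephalic and to 2830 to 3380 CPM in the striatopallidal libraries, and oligodendrocyte markers to 6270 and 7670 against 5660 to 7600 CPM. Microglial markers summed to 151 and 216 against 92.2 to 282 CPM. In 3 of 16 astrocyte genes (Aqp4, Gfap and Slc4a4; 18.8%) every striatopallidal library lay above both striatomesencephalic ones, beside 9.91% of all genes fitted. The same held for 3 of 14 oligodendrocyte genes (21.4%), 1 of 5 precursor, 1 of 8 microglial, 2 of 10 vascular, 2 of 5 interneuron and 1 of 3 cortical genes, and for 0 of 1 ependymal and 0 of 2 blood genes. Gfap stood at no more than 11.5 CPM against at least 87.7 CPM. Their part in the levels of the 28 genes was not tested.

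All 28 genes are protein coding in RefSeq, and 4 of them (14.3%) overlap another coding gene there, as do 19.7% of the 5920 genes at the floor that could be matched. Whether the counting used strand is not given, so reads of such pairs cannot be told apart. Araf, which overlaps Syn1, stood at 80.5 and 97.5 CPM against 95, 111 and 55 CPM and did not follow it. Timp1 and LOC102555453, which also overlap Syn1, were not analysed here. Ddx28, which overlaps Dus2, stood at 132 and 60.3 CPM against 67.3, 28.7 and 52.0 CPM. Tnfaip8l2, which overlaps Lysmd1, stood at 3.65 and 7.78 CPM against 32.7, 0.202 and 5.80 CPM, with striatopallidal replicate 1 high for both genes. Naa12, which overlaps Txnl4a, was not analysed here.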

How the data were processed

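PolyA RNA of laser-captured cells was reverse transcribed with a single-cell kit, per the labels' protocols. The submitters' processing notes name TopHat2, HTSeq, edgeR, limma and build Rnor_6.0; for these, versions and roles were not given in the sources used here. Raw read counts, deposited by the authors as 1 file per library, are the source of every value unless stated. The authors deposited normalized values too, a signal that matched counts over each label's factor to 0.00501, and CPM made from it, also a signal. Their deposited comparison, per the file headers, holds log2 fold changes, p-values and a log-odds score (not used here) for 12054 genes, and pairs identifiers with symbols.

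CPM is the count over the library total, times 1000000. Fold changes are from edgeR 4.0.16 (R 4.3.3) with filterByExpr, TMM and glmQLFit and glmQLFTest on all 5 libraries, Benjamini-Hochberg adjusted over 13811 genes; SEs come from the fold change and F. DESeq2 1.42.0 and limma 3.58.1 (voom) were alternatives, and the exact test was added after seeing the data. The fit was tested on simulated data. The labels name no molecular identifiers, so 3 counts (0.121 to 0.144 CPM), taken as the detection floor, cover counting error only. Whether libraries of 1 group came from separate animals is not given, so p-values measure the spread between these libraries.

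The genes, gene lists and relatives were chosen with earlier results of these data known. Every one of the 28 is named, with each library's value for the 12 largest ratios, the 5 with the highest mean striatopallidal CPM, members of a list and genes next to the 3-fold line. Gene identifiers were matched to RefSeq (GRCr8) by symbol or synonym, 28 of 28, for neighbours and promoters only, and since the builds differ no positions are given beside those of the promoters shown. Parts of the glutamate receptor list and of the relatives are not reported here.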

Additional observations from a re-analysis of the deposited data

How the results depend on the processing

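The number of genes meeting the criteria was 33 and depended on them. It was 91 at a ratio of 2, 20 at a ratio of 4, 52 at a floor of 5 CPM, 17 at a floor of 20 CPM and 121 with no floor. A 3-fold ratio of group means, chosen after seeing the data, gave 659 genes. Both TMM scaling and DESeq2 size factors gave 33 genes with 20 of the 28 among them. The authors' deposited CPM gave 33 with all 28. Each library's factor cancels in that CPM, so it is not a separate scaling and gives no check of the list. With 1 library fewer to satisfy, the number was 148 without striatomesencephalic replicate 1 and 156 without replicate 2. It was 82, 108 and 91 without striatopallidal replicates 1, 2 and 3. Between the neuron types 0 genes were called in the quasi-likelihood fit under every scaling, filter and left-out library tried, and by limma voom, but 226 by DESeq2 and 45 by the exact test of edgeR. The median log2 fold change of the 28 genes, 3.39, ran from 2.91 (without striatopallidal replicate 2) to 3.55 as libraries were left out, and from 3.08 to 3.41 under the other alternatives. The sign of these values was fixed by the choice of the genes. Groups share replicate numbers 1 and 2, but deviations of same-numbered libraries correlated at -0.0194 and -0.0342, so the numbers are not taken as pairs. With a replicate block 0 genes were called, the median was 3.19 and Atox1 had 2.04. Only striatopallidal replicate 3 carries the number 3, so the block takes that library out of the contrast. That fit leaves little to measure the spread by, so its 0 calls are no further check. Having 2 against 3 libraries limits what a single gene can show, and 16 of the 28 genes rest on levels below 5 CPM in both striatomesencephalic libraries.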
